A study of Danio rerio with 40 samples.

Results

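The hsd17b1 promoter region was examined in the gonads of 40 zebrafish at the 6 CpG sites that the study's amplicon table counts in its target region. The members were chosen by position: chromosome 3, 17897321 to 17897746 on GRCz11, where the gene (RefSeq transcript NM_205584) lies on the minus strand. These are 6 of the 99 CpG sites in the 6 amplicons of the series, and 6 of the 276 cytosines listed inside those amplicons. By that table the amplicon is 426 bases long, with 394 bases upstream of the transcription start and 30 bases past it, which leaves 2 bases of its length unassigned, and all 6 sites lie in the 5′ flank of the gene, before the first exon of this transcript. The fish were zebrafish of the AB strain, raised in the laboratory and, by the methods, drawn from a single family. The 4 groups hold 10 fish each. Control fish were kept at 9 fish/L, the others spent the period of sex differentiation, from 18 to 45 days post-fertilization (dpf), crowded at 66 fish/L, and each density gave a group of ovaries and a group of testes. All gonads were taken at 90 dpf, and each sample holds the gonadal DNA of a single fish.

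The gene encodes a hydroxysteroid dehydrogenase that turns estrone into the more potent estrogen estradiol, and it is expressed in the zebrafish ovary. A CpG is a cytosine followed by a guanine, the main place where vertebrate DNA carries methyl groups, and dense methylation near a transcription start is commonly found at silent genes. In the assay, Methylation Bisulfite Sequencing (MBS), bisulfite turns unmethylated cytosines into uracils that are read as thymines, the target is amplified by PCR, and the methylation level of a site is the percentage of reads that still show a cytosine. Expression was not analysed here.

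The primers are shown because they fix the part of the promoter that the reads cover. Both are written as the study designed them, 5′ to 3′, for bisulfite-converted DNA of chromosome 3.
hsd17b1 forward primer: attgtgattaaaaatttataagatgtatga
hsd17b1 reverse primer: caataatcatacattaaacacaaaataata

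The sites are named here by their distance from the transcription start, counted from the start of the amplicon. On chromosome 3 (GRCz11) they are site −25 at 17897376, site −29 at 17897380, site −45 at 17897396, site −70 at 17897421, site −88 at 17897439 and site −246 at 17897597. Counted from the other end of the amplicon, each is 1 base nearer to the start. Neighbouring sites lie 4 to 25 bases apart, except for a gap of 158 bases between sites −88 and −246. All 6 sites were read in all 40 fish, by 775 to 32171 reads, so that no value fell to the coverage minimum of more than 5 reads. The median coverage of a fish was lowest in the ovary G6 at 66 fish/L, with 778 reads. Reads may be PCR copies of the same molecule, and confidence intervals on read shares therefore cover counting error only.

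In ovaries the hsd17b1 promoter was partly methylated, and in testes it was methylated in nearly every read at 4 of its 6 sites. Averaged over the 6 sites, the level of ovaries was 32.1% ± 6.15 (mean ± SD, n = 10) for 9 fish/L and 30.5% ± 7.41 for 66 fish/L. The values of testes were 79.6% ± 0.629 at 9 fish/L and 79.3% ± 0.845 at 66 fish/L. The highest ovary reached 43.6% and the lowest testis 77.6%, so the sexes did not overlap. The dnmt1 amplicon of the same fish, which codes for the maintenance DNA methyltransferase and was read in the same way, had levels of 0.159% to 0.922%. In bulk gonads, a smaller share of methylated cells and less methylation per cell cannot be told apart.

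**Figure D1:**
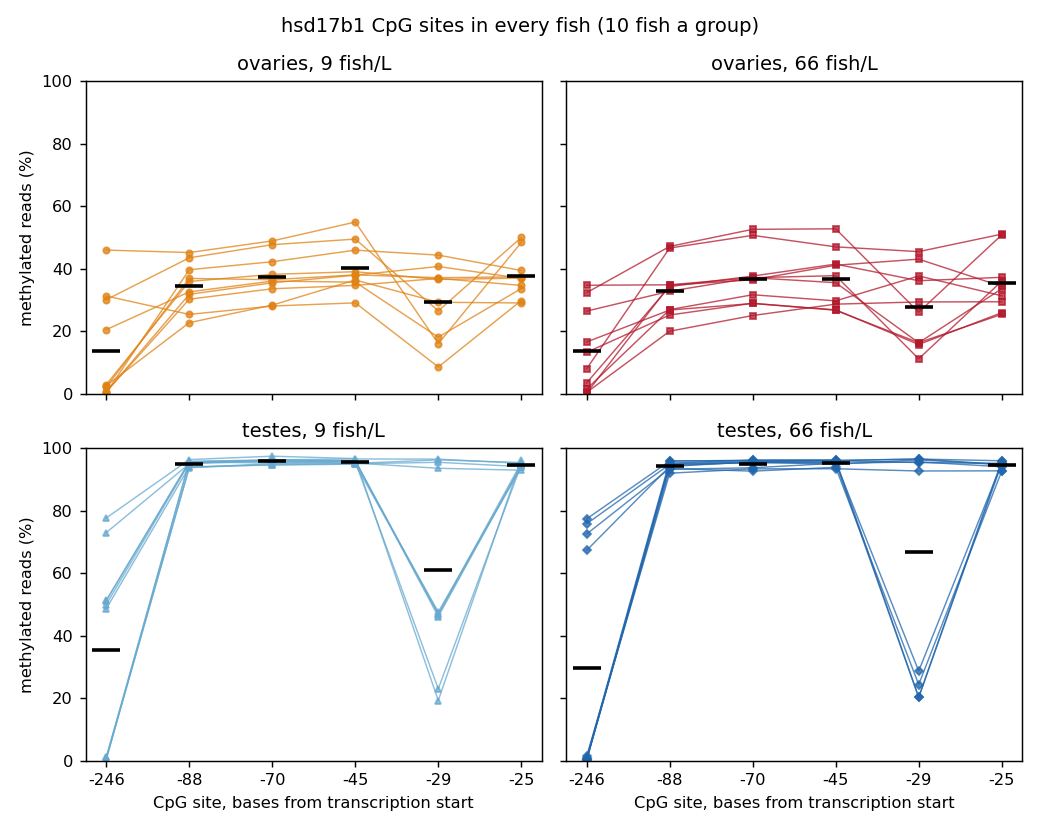
Percentage of methylated reads (vertical axis) at the 6 hsd17b1 sites (horizontal axis, bases from the transcription start, evenly spaced rather than to scale), with 1 line per fish, 10 fish in each of 4 groups, and black bars for group means. Testes lie between 92.0% and 97.4% at sites −88, −70, −45 and −25 and spread widely at sites −246 and −29, and ovaries are lower and more variable at the 4 sites.

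Sites −25, −45, −70 and −88 made up the even part of the promoter. Site −25, the nearest to the start, ranged from 25.4% to 51.0% in the 20 ovaries with a median of 35.3%, and from 92.6% to 96.3% in the 20 testes with a median of 94.8%. Site −45 had the highest mean of ovaries, with a range of 26.7% to 54.9% and a median of 37.8%, and testes lay between 93.4% and 96.6% with a median of 95.6%. At site −70 ovaries ranged from 25.01% to 52.6% (median 36.4%) and testes from 92.6% to 97.4% (median 95.6%). Site −88 was the lowest of these 4 sites in ovaries, with 19.99% to 47.1% and a median of 33.5%, while testes had 92.0% to 96.3% and a median of 94.998%. No ovary reached the lowest testis at any of the 4 sites.

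Within a fish, the 4 sites kept a partial order. In ovaries, site −45 was above site −88 in 20 of 20 fish, by 4.78 points on average (SD 3.38), and the Wilson intervals of the reads were separate in 14 of them. Site −70 was above site −88 in 19 of 20 ovaries, by 3.40 points (SD 1.43), with separate intervals in 14. Sites −45 and −70 themselves did not keep an order, since site −45 was higher in 14 ovaries and lower in 6. In testes the same steps were small: site −45 exceeded site −88 in 19 of 20 fish by 0.717 points (SD 0.563), with separate intervals in 5, and site −25 was below site −45 in 19 of 20 fish by 0.820 points (SD 0.595). The means of these sites over ovaries differed by less than the SD of the ovaries at each site.

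Sites −29 and −246 behaved differently from the rest. Site −29 lies 4 bases from site −25, yet it ranged from 19.3% to 96.5% in testes (median 70.1%) and from 8.56% to 45.4% in ovaries (median 29.3%). Site −246 ranged from 0.315% to 77.7% in testes (median 25.02%) and from 0.201% to 45.9% in ovaries (median 5.74%). These spreads are far above the counting error of the reads. In testes, the SD between fish was 58.3 times the SD expected from counting at site −29 and 60.6 times at site −246, against 3.01 times at site −25 and 2.62 times at site −45. In ovaries it was 14.4 times at site −29 and 31.6 times at site −246, and 9.17 to 9.50 times at the other 4 sites.

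The range of these sites over testes exceeded that of every CpG site in the other amplicons. Among the 93 CpG sites of the other 5 genes, the range over the 20 testes had a median of 5.99 points and reached at most 34.3 points, at a site of cyp19a1a, against 77.2 points at site −29 and 77.3 points at site −246. In ovaries 16 of the 93 other sites had a range over 50 points, the widest being 79.3 points at a site of cyp11c1, while site −29 had 36.9 points and site −246 had 45.7 points. The pair was chosen after its values had been seen, and these ranges are a description with no test.

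The values of sites −29 and −246 were complementary. A percentage here is the share of reads with a cytosine, and the genotype of the fish was not analysed. An unmethylated cytosine and a base that reads as a thymine at its place therefore cannot be told apart at these sites or in levels that include them. In the 20 testes, a lower value at one of them went with a higher value at the other. Their sum lay between 94.1% and 98.1%, which is 100.3% to 104% of the mean of the other 4 sites in the same fish. The difference between this sum and that mean was at most 3.73 points.

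**Figure D2:**
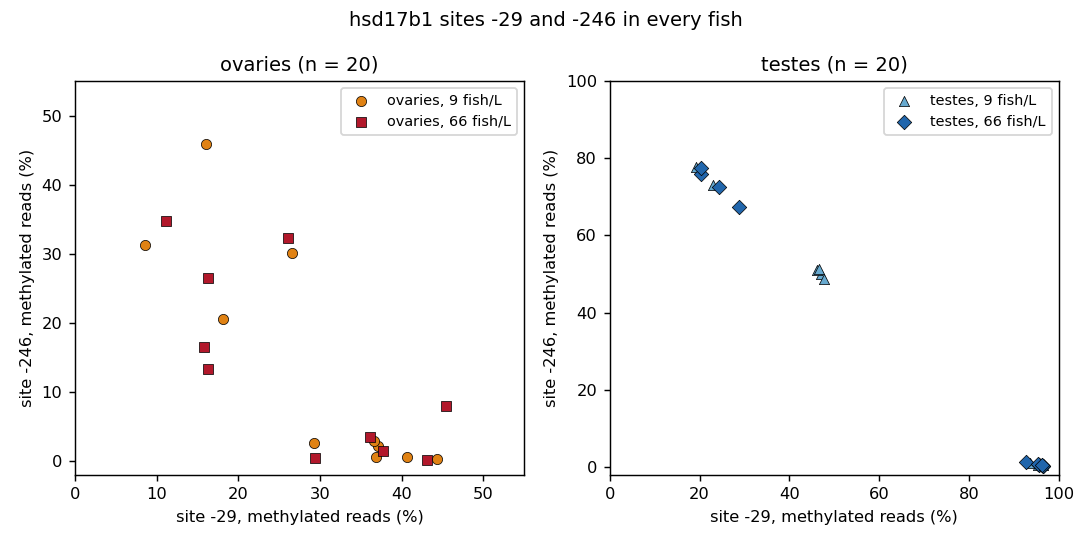
Methylated reads at site −29 (horizontal axis, %) against site −246 (vertical axis, %) in each of 20 ovaries (left) and 20 testes (right), with the densities marked by colour and shape and 1 point per fish. Testes fall in 3 clusters, with 10, 4 and 6 fish, along a line on which the 2 values sum to between 94.1% and 98.1%, and ovaries show the same 2 ends at lower values with more scatter.

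By the share of this sum that was found at site −246, the testes fell into 3 clusters separated by empty ranges, from 1.51% to 50.5% and from 52.6% to 70.1%. In 10 testes, 4 at 9 fish/L and 6 at 66 fish/L, site −29 was as methylated as its neighbours (92.7% to 96.5%) and site −246 was nearly unmethylated (0.315% to 1.42%). In 4 testes, all at 9 fish/L, both sites stood near the middle. Testis G4 had 47.05% at site −29 and 49.96% at site −246, G9 had 46.1% and 51.2%, G11 had 46.7% and 51.3%, and G18 had 47.6% and 48.6%. These 4 fish lay close together, between 48.6% and 51.3% at site −246.

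In the last 6 testes, 2 at 9 fish/L and 4 at 66 fish/L, site −246 was the higher one. At 9 fish/L, G20 had 23.01% at site −29 and 72.97% at site −246, and G24 had 19.3% and 77.7%. At 66 fish/L, G13 had 20.3% and 75.8%, G15 had 28.7% and 67.3%, G20 had 24.4% and 72.5%, and G24 had 20.3% and 77.4%. No testis had site −29 near 0: the lowest value there was 19.3%, whereas site −246 fell to 0.315%, within the range of levels of the dnmt1 amplicon.

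Ovaries showed the same arrangement with softer edges. In 11 ovaries, 6 at 9 fish/L and 5 at 66 fish/L, site −246 held 0.464% to 14.97% of the sum, with 0.201% to 8% methylated reads at site −246 and 29.2% to 45.4% at site −29. In 6 ovaries, 2 at 9 fish/L and 4 at 66 fish/L, the share was 44.8% to 61.8%, with site −29 between 15.7% and 26.5% and site −246 between 13.2% and 32.3%. In 3 ovaries it was 74.2% to 78.5%. These were G6 at 9 fish/L with 16.0% at site −29 and 45.9% at site −246, G7 at 9 fish/L with 8.56% and 31.2%, and G11 at 66 fish/L with 11.2% and 34.7%. The empty range from 14.97% to 44.8% was the widest in ovaries. The edge of 14.97% belongs to the ovary G6 at 66 fish/L, with 8% at site −246 in 775 reads (Wilson 95% interval 6.29% to 10.1%), and the next ovary below it had a share of 8.80%.

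The sum of the pair exceeded the mean of the other 4 sites in all 40 fish. It came to 105.2% to 142% of that mean in ovaries, with a median of 115%, and to at most 104% in testes, with a median of 101%. In points, the sum was above the mean by 1.94 to 12.6 in ovaries and by 0.265 to 3.73 in testes, so that the sexes overlapped on this scale. The highest excess in ovaries was that of G6 at 9 fish/L, whose sum was 61.9% beside a mean of 49.3%.

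**Figure D3:**
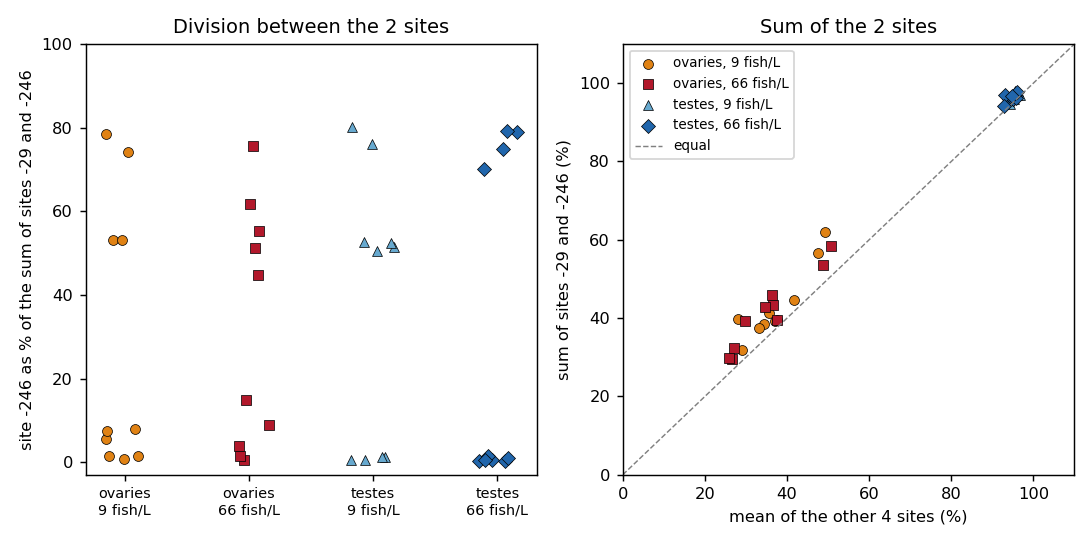
Left, site −246 as a percentage of the sum of sites −29 and −246 (vertical axis) in each fish of the 4 groups, with points spread sideways only to separate them. Right, that sum (vertical axis, %) against the mean of the other 4 sites of the same fish (horizontal axis, %), with the dashed line where both are equal; all 40 fish lie above the line, ovaries by 1.94 to 12.6 points and testes by 0.265 to 3.73 points.

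Some code numbers occur at both densities of a sex. The testes coded G10, G20, G21 and G24 fell in the same cluster at 9 and at 66 fish/L in 4 of 4 cases. The clusters held 4, 4 and 2 testes at 9 fish/L and 6, 0 and 4 at 66 fish/L. Fish with different codes therefore shared clusters as well, and a link between codes was not tested. Site −246 held 0.604% and 0.325% of the sum in G10, 76.0% and 74.9% in G20, 1.16% and 1.51% in G21, and 80.1% and 79.2% in G24, at 9 and 66 fish/L in that order. Of the ovaries with a shared code, G12 (53.1% and 55.3%) and G14 (0.722% and 8.80%) were alike, and G2 (53.2% and 0.464%) and G6 (74.2% and 14.97%) were not. At the other 4 sites the same testes had means of 94.4% and 95.4% (G10), 95.3% and 93.1% (G20), 95.5% and 92.9% (G21), and 96.7% and 96.0% (G24). The labels do not say that a code links fish of different groups.

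A position next to site −246 followed it. Position 17897598, 1 base farther from the start, was covered by 4 to 127 reads in a fish (median 23.5). In the 10 testes with site −246 at 10% or less, 1 of 525 reads was methylated there, and in the 10 testes with site −246 above 10%, 81 of 244 were. In ovaries the numbers were 0 of 320 reads in 11 fish and 25 of 393 reads in 9 fish. The percentage was below that of site −246 in 17 of the 18 fish that had methylated reads there and more than 5 reads. In the exact permutation test, testes were called higher at this position at 9 fish/L, with 21.6% against 2.88% in ovaries (adjusted p = 0.0165). At 66 fish/L, with 9 fish a group above 5 reads, 16.5% against 4.68% did not pass (adjusted p = 0.274). Which strand the listed cytosines are on is not given in the sources used here.

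Testes were called higher than ovaries at 5 of the 6 sites, at both densities. At site −246 the mean of testes was also higher, but the test did not pass. The medians there were 49.3% in testes and 2.74% in ovaries at 9 fish/L. At 66 fish/L they ran the other way, with 1.15% in testes and 10.6% in ovaries. Such medians depend on how many fish fell at the low end of site −246. Site −246 held under 20% of its sum with site −29 in 4 testes and 6 ovaries at 9 fish/L. At 66 fish/L it did so in 6 testes and 5 ovaries. At 9 fish/L, 5 of the 6 sites passed an adjusted p of 0.05, beside 64.7% of all 119 cytosines tested in the amplicons, and at 66 fish/L 5 of 6 did, beside 69.2% of 117 (exact permutation test per site over all splits of the 20 fish, two-sided, Benjamini-Hochberg over all cytosines tested). All 5 were higher in testes, where 44.5% and 48.7% of the cytosines tested were called with that direction and 20.2% and 20.5% with the opposite one. The sexes did not overlap at 4 of the 6 sites at either density, which was true of 42.9% of the cytosines tested at 9 fish/L and of 51.3% at 66 fish/L. With only 6 sites, the count of called sites of hsd17b1 is thus not far from that of the amplicons together. Its shares called higher in testes and without overlap lay above those of all cytosines tested, and this was not tested. The cytosines tested include positions beside the 99 CpG sites.

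At the even sites the difference between the sexes was large against the spread. At 9 fish/L, site −88 differed most among them, with 34.4% ± 7.30 in ovaries and 95.1% ± 0.905 in testes (60.7 points, 95% interval 55.5 to 65.9), and site −45 least, with 40.1% ± 7.72 and 95.7% ± 0.623 (55.6 points, 50.05 to 61.1). At 66 fish/L the differences ran from 58.4 points at site −70 to 61.5 points at site −88. In the exact permutation test each of these sites had p = 1.08e-05, the smallest that 10 fish against 10 allow, and an adjusted p of 2.58e-05 at 9 fish/L and 2.15e-05 at 66 fish/L.

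The complementary sites differed less and less clearly. Site −29 had 29.4% ± 11.9 in ovaries and 61.2% ± 31.1 in testes at 9 fish/L (31.8 points, 8.70 to 54.8; exact permutation test, adjusted p = 0.0137), and 27.7% ± 12.5 and 66.7% ± 37.3 at 66 fish/L (38.9 points, 11.6 to 66.3; adjusted p = 0.0121). Site −246 had 13.7% ± 16.9 in ovaries and 35.5% ± 31.4 in testes at 9 fish/L (21.8 points, −2.40 to 46.0; exact permutation test, adjusted p = 0.104), and 13.7% ± 13.3 and 29.7% ± 37.6 at 66 fish/L (16.0 points, −11.7 to 43.7; adjusted p = 0.292). Over all fish, ovaries and testes overlapped at both sites, and a difference at site −246 was not detectable with this spread between fish. These comparisons pool fish that divide the sum differently. Where site −246 held over 65% of the sum, it had 31.2% to 45.9% in 3 ovaries and 67.3% to 77.7% in 6 testes. At shares of 20% to 65%, it had 13.2% to 32.3% in 6 ovaries and 48.6% to 51.3% in 4 testes. Below 20%, the sexes overlapped there. Site −29 was lower in ovaries, without overlap, at each of these shares. The limits were set after the values were seen, and no test was made.

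**Figure D4:**
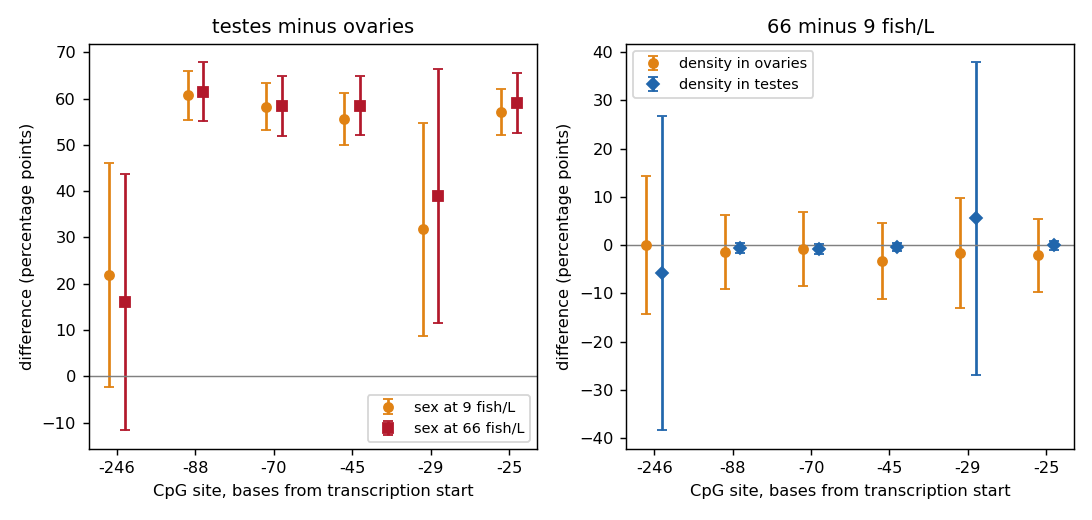
Differences in percentage points (vertical axes) at the 6 sites (horizontal axes, bases from the transcription start), as testes minus ovaries at each density (left) and as 66 minus 9 fish/L in each sex (right), with 95% intervals from 10 fish a group. The sex differences lie between 55.6 and 61.5 points at 4 sites with narrow intervals and have wide intervals at sites −29 and −246, and every interval of the density differences includes 0.

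Rearing density was compared within each sex to ask whether the early treatment left a mark in the adult gonad. By the methods density was set per tank, and the sample labels used here give no tank. Density and tank therefore cannot be told apart, and the tests below take fish as independent. Of the 6 sites, 0 passed in ovaries, where 0.0% of 117 cytosines did, and 0 passed in testes, where 0.0% of 120 did (exact permutation test, Benjamini-Hochberg). None of the 6 had an unadjusted p under 0.05 in either sex, whereas 5 cytosines of the amplicons did in each (4.27% and 4.17%), and a quasi-binomial model of the reads also called 0 of the 6. In ovaries the differences of the means, 66 minus 9 fish/L, ran from −3.36 points at site −45 to −0.887 points at site −70 among the even sites, the former with an interval of −11.2 to 4.49 points (36.7% ± 8.94 against 40.1% ± 7.72). Site −246 of ovaries had equal means, 13.7% at both densities, with medians of 2.74% at 9 fish/L and 10.6% at 66 fish/L. In testes the even sites differed by −0.0778 points at site −25 to −0.730 points at site −70, with intervals that reached at most 1.76 points below 0 and 0.909 points above it. The medians of testes at 9 and 66 fish/L were 47.3% and 94.0% at site −29, and 49.3% and 1.15% at site −246. Their means differed by 5.51 points (−26.9 to 37.9) at site −29 and by −5.81 points (−38.4 to 26.8) at site −246, over all 10 fish a group. The quasi-binomial model, which weights fish by their reads, put these 2 differences at 17.1 and −17.2 points, with an adjusted p of 0.993 for each. A replicate block at single sites, chosen after the data were seen, used the 4 code numbers that both densities of a sex share. In testes both fish of all 4 pairs fell in the same cluster, so differences at these 2 sites could only be small. They were −0.0216 points at site −29 (at most 3.56 points in a pair) and −0.174 points at site −246 (at most 0.453 points). In ovaries the block gave 11.4 points at site −29 (at most 29.4 points in a pair) and −13.2 points at site −246 (at most 37.9 points). In the exact permutation test of signs p was 1 and 0.5 in testes and 0.375 and 0.5 in ovaries, where 4 pairs allow no p under 0.125.

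Over the 6 sites, the level differed between the densities by −1.58 points in ovaries (95% interval −7.998 to 4.83; p = 0.606 in the exact permutation test and 0.728 after adjustment over the 6 amplicons) and by −0.371 points in testes (−1.07 to 0.333; p = 0.283, adjusted p = 0.566). The density difference was 1.21 points more positive in testes than in ovaries. This interaction of sex and density was not past the threshold (p = 0.691 in the permutation test, 0.961 after adjustment). At single sites the interaction passed at 0 of the 6 sites, beside 0 of all 117 cytosines tested. Coverage moved with density, with a median of 3328.5 reads per ovary at 9 fish/L and 5212.75 at 66 fish/L, and of 3171 and 8912.25 reads per testis, and its part in these values was not tested. For the sexes, the level differed by 47.5 points (43.1 to 51.9) at 9 fish/L and by 48.7 points (43.4 to 54.1) at 66 fish/L, each with an adjusted p of 1.3e-05 in the exact permutation test.

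Between fish of a sex, the 4 even sites rose and fell together. In ovaries the 6 pairs of these sites had Pearson's r from 0.919 to 0.984 and Spearman's rho from 0.918 to 0.952 over 20 fish, with values centred within density. In testes r was 0.834 to 0.911 and rho 0.751 to 0.890, over a range of only a few points. All 12 relations passed the permutation test within density (100000 resamples, Benjamini-Hochberg over 30 pairs of sites), with adjusted p from 2.73e-05 to 1.62e-04 for r. The smallest p these resamples can give is 1e-05. The 4 even sites are those left after sites −29 and −246 had been set apart by these same values, so the tests are not independent of that choice.

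Within each density r was positive for all of these pairs. In ovaries r was 0.883 to 0.977 at 9 fish/L and 0.940 to 0.990 at 66 fish/L, and in testes it was 0.663 to 0.871 and 0.850 to 0.952. At 9 fish/L alone, 5 of the 6 pairs passed in testes, and the remaining one had an adjusted p of 0.0764 in the permutation test. Without the 2 fish farthest from the median of the first site, r was 0.888 to 0.976 in ovaries and 0.679 to 0.850 in testes. The sites share reads and libraries, so the points are not independent measurements of the promoter. With the mean of the other sites taken out, 1 of the 6 pairs in ovaries and 2 of 6 in testes remained past the threshold. No pooled r is given for pairs with site −29 or site −246, because the fish fall into separate clusters there.

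The ovaries differed in level as a whole. The ovary with the lowest mean of the 4 even sites was G26 at 66 fish/L, with 25.8%, and the highest was G12 at 66 fish/L, with 50.8%. Among testes, the lowest was G21 at 66 fish/L with 92.9% and the highest G24 at 9 fish/L with 96.7%. Testis G21 was the lowest testis at 2 of these sites, −45 with 93.4% and −88 with 92.0%, and was covered by 12551.5 reads in the median.

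Across amplicons, the hsd17b1 level of a fish was most like that of dmrt1 and cyp19a1a in ovaries. The first codes for a transcription factor of testis development and the second for aromatase, which turns androgens into estrogens. In ovaries r was 0.683 for dmrt1 (rho 0.617; permutation test, adjusted p = 0.0053 over 10 relations) and 0.672 for cyp19a1a (rho 0.717; adjusted p = 0.006), over 20 fish centred within density. At 9 and 66 fish/L alone, r was 0.726 and 0.675 for dmrt1 and 0.864 and 0.519 for cyp19a1a.

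The likeness was also computed with some ovaries left out. Without the 2 ovaries farthest from the median hsd17b1 level, r was 0.475 for dmrt1 (permutation test, unadjusted p = 0.04998) and 0.513 for cyp19a1a (p = 0.036). Leaving out the most distant fish also narrows the range of levels, which by itself can lower r. Without the ovaries with under 30 reads of dmrt1, which left 17, r was 0.649 for dmrt1 and 0.668 for cyp19a1a, and hsd11b2 passed as well, with r = 0.596 (adjusted p = 0.0337), against 0.488 (adjusted p = 0.0761) over all 20 ovaries. By the size of r, the 2 amplicons most like hsd17b1 in testes were hsd11b2 and cyp11c1, enzymes of corticosteroid and androgen metabolism.

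In testes r was 0.778 for hsd11b2 (rho 0.738; permutation test, adjusted p = 0.001) and 0.473 for cyp11c1 (rho 0.368; adjusted p = 0.0804), so the latter did not pass the threshold. By the size of rho, dmrt1 stood in place of cyp11c1, in the opposite direction (rho −0.462, permutation test, adjusted p = 0.0931). At 9 fish/L alone, r was 0.667 for cyp19a1a and 0.641 for cyp11c1, while cyp19a1a had −0.196 over all 20 testes. Testis G24 at 66 fish/L had a cyp19a1a level of 69.5%, and the next lowest, G21 at 66 fish/L, had 91.0%. The part of this fish in the order was not tested. For hsd11b2 r was 0.744 at 9 fish/L and 0.842 at 66 fish/L, and 0.644 (p = 0.00718) without the 2 testes farthest from the median. All amplicons of a fish come from the same DNA preparation and library, and the hsd17b1 levels of testes covered a narrow range, from 77.6% to 80.6%.

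**Figure D5:**
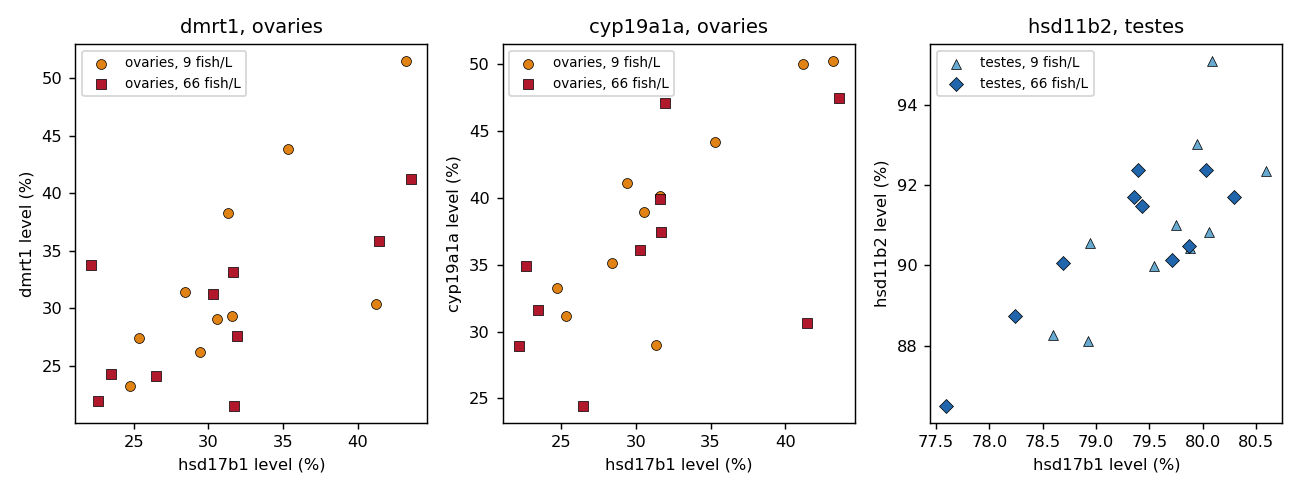
Level of hsd17b1 over its 6 sites (horizontal axes, %) against the level of dmrt1 and of cyp19a1a in 20 ovaries and of hsd11b2 in 20 testes (vertical axes, %), 1 point per fish, with the densities marked by colour and shape; the axes do not start at 0. Fish with a higher hsd17b1 level tend to have a higher level of the other amplicon, with r of 0.683, 0.672 and 0.778 after centring within density.

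The other steroid enzymes assayed, cyp19a1a, cyp11c1 and hsd11b2, form with hsd17b1 the steroid part of the series and hold 43 CpG sites. Of these, 40 were called higher in testes at 9 fish/L and 3 did not pass, beside 44.5% of all 119 cytosines called higher in testes. At 66 fish/L, 39 were called higher and 4 did not pass, beside 48.7% of 117 cytosines. Between densities 0 passed in either sex, beside 0.0% of 117 cytosines in ovaries and 0.0% of 120 in testes (exact permutation test, Benjamini-Hochberg). At an unadjusted p under 0.05, none of the 43 CpG sites passed in either sex, while over all amplicons 5 cytosines did in each. The 5 called sites of hsd17b1 had the direction of the called sites of these enzymes, and cyp19a1a was the only one of the 3 also among the amplicons most like hsd17b1 in ovaries.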

How the data were processed

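DNA methylation was measured by MBS in the gonads of 40 fish. According to the labels and methods, the authors trimmed reads with Trim Galore 0.4.5, aligned them to GRCz11 with Bismark (16.0 in the processing notes, which differ from the methods) and Bowtie2, removed duplicates and extracted calls in the CpG context. The deposited file of a fish lists cytosines with their counts of methylated and unmethylated reads, not normalized, and the percent of methylated reads. In these calls any read with a thymine at a reference cytosine counts as unmethylated. The percent equalled the ratio of the counts in all 7221 values. A repeated header line in 1 list was skipped. The 2183 values covered by 5 reads or fewer were not used.

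Sites were assigned by the amplicon table of the study. Its 6 CpG sites of hsd17b1 were taken as the 6 deepest of the 23 positions listed there, and likewise for the other amplicons. The level of a fish is their unweighted mean. Groups came from the sample titles. Each cytosine with at least 6 fish a group above the minimum entered an exact permutation test, and p-values were adjusted over all cytosines tested by Benjamini-Hochberg. Intervals of differences are Welch intervals and intervals of read shares are Wilson intervals, at 95%. All 6 sites are named, and of the other amplicons those with the 2 largest r in each sex. The members and lists were chosen with earlier results of these data known. Fish are the replicates in the tests, although density was set per tank. The site tests were checked on simulated reads in which fish spread around the mean of their group. This check did not cover sites whose fish fall into separate clusters.

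Code numbers shared by both densities of a sex were checked for pairing. Over 99 sites, the deviations of same-numbered fish from their group means correlated by −0.396 to 0.239 in ovaries and by 0.623 to 0.943 in the 4 pairs of testes. This likeness comes from the data, not from the labels, and without sites −29 and −246 the correlations in testes were −0.347 to 0.139.

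Alternatives changed the coverage minimum, the cytosines, the average over sites, the test and the block. Levels without sites −29 and −246, ovaries without those of low dmrt1 coverage, and the block at single sites were chosen after seeing the data. Python 3.11.15 was used with scipy 1.17.1, statsmodels 0.14.6, numpy 2.4.6, matplotlib 3.10.9 and pandas 2.3.3.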

Additional observations from a re-analysis of the deposited data

How the results depend on the processing

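Every fish had at least 775 reads at each of the 6 sites. Alternatives that changed only the coverage minimum, or left out fish of low coverage, could therefore not move their differences, levels or relations. Only adjusted p-values, which also depend on other amplicons, could shift there. Of 132 alternative values of single sites, 6 reversed, all under the quasi-binomial model or the block. The other 126 kept their direction and their side of the threshold. Of 88 for levels, counts and relations, 81 did so or, for a count, stayed within 1.5 times it. Among these, 5 of 6 pairs of even sites passed in testes at 9 fish/L alone, and 3 other amplicons in place of 2 passed in the 17 ovaries with more dmrt1 reads. The density difference at site −25 in testes reversed to 0.164 points in the quasi-binomial model, which weights fish by reads, and the interaction of sex and density reversed to −3.22 points with all listed cytosines of the amplicon; the cause was not tested. With the mean of the other sites regressed out, 1 of 6 pairs of even sites passed in ovaries and 2 of 6 in testes. With 9 fish/L alone, 1 of the 5 other amplicons passed in ovaries and 0 in testes, with 66 fish/L alone 0 passed in ovaries, and with all listed cytosines 2 passed in testes. Over all alternatives the sex difference of the level lay between 42.8 and 58.2 points for 9 fish/L and between 39.6 and 60.1 points for 66 fish/L, and the density difference from −2.25 to −0.186 points in ovaries and from −3.89 to −0.349 in testes. With code numbers as a replicate block, 4 pairs a sex gave −0.186 points in ovaries and −0.780 in testes, where the smallest p that 4 pairs allow is 0.125, and the block changed no call. At single sites, a check chosen after seeing the data, the block reversed the density difference to −0.0216 points at site −29 in testes and, in ovaries, to 0.488 at site −25, 11.4 at site −29, 0.632 at site −70 and 0.459 at site −88, and no site passed. At the 6 sites, 3 reads were at most 0.387% of the reads of a site. Reads may be PCR copies, so this does not give the number of molecules read, and the part of coverage was not tested.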

Other observations

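Besides the 6 sites and the position next to site −246, the lists hold 16 positions inside the hsd17b1 amplicon, each covered by at most 21 reads in a fish. Together they hold 414 reads over the 40 fish, of which 4 were methylated, and 15 of the 16 positions had 0 methylated reads. The 4 methylated reads lie at position 17897440, next to site −88, and 3 of the 16 positions lie within a primer.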
